A study of Mus musculus with 40 samples.

Results

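The change in the liver transcriptome between day 3 and day 6 of purified control diet (PD) feeding was examined in mice without Nampt in their hepatocytes (HNKO). All HNKO liver libraries of day 6 were compared with all HNKO liver libraries of day 3, 5 against 5, across every gene with adequate counts, so the members are 10 of the 40 libraries of the series and 20297 of the 55487 genes in the table. The series holds bulk RNA-Seq of whole liver from HNKO mice and WT littermates after 3, 6, 12, and 21 days on PD. Each library came from 1 female mouse of the C57BL/6JBomTac strain, 9 weeks old when PD feeding began, and kept on a fortified breeding chow before the diet. HNKO mice were Nampt fl/fl and Alb-Cre+/-, and WT mice were floxed littermates without Cre. The albumin promoter drives Cre in hepatocytes, and whole liver RNA also holds transcripts of other cells, in which the loss of Nampt was not measured. WT liver of the same days, with 5 libraries at day 3 and 4 at day 6, served as the comparison. Total RNA was depleted of rRNA, and the 10 HNKO libraries held 16151037 to 34720845 counts. Values for single libraries are given as CPM, the counts scaled to the size of each library after normalization by trimmed means, always in the order of library 2, 3, 4, 22, and 23 for HNKO day 3 and library 6, 7, 29, 30, and 31 for HNKO day 6, by the numbers of the sample labels.

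The acute phase response is a change in the plasma proteins that the liver makes when tissue is injured or infected. Cytokines such as IL-6 and IL-1 reach receptors on hepatocytes, signal through STAT3 and NF-kB, and raise the transcripts of serum amyloid A, haptoglobin, hemopexin, and orosomucoid. Neutrophils and monocytes enter injured liver in answer to chemokines and to growth factors such as G-CSF, and carry receptors for both.

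Nampt, which encodes the rate-limiting enzyme of the NAD salvage pathway, was counted over all its exons, deleted and retained. Its levels in HNKO liver were 39.6, 41.6, 36.9, 35.3, and 40.7 CPM at day 3 and 51.5, 82.03, 44.5, 46.8, and 56.1 CPM at day 6. WT liver held 73.9 ± 14.2 CPM at day 3 (SD, n = 5) and 105 ± 47.9 CPM at day 6 (SD, n = 4). Nampt was below WT at both days, with log2 fold changes of −0.93 at day 3 (adjusted p = 0.0193) and −0.897 at day 6 (adjusted p = 0.0128). Within HNKO liver the day 6 libraries lay above the day 3 libraries without overlap. The difference missed the threshold (log2 fold change 0.54, SE 0.23, adjusted p = 0.351). The exact permutation test over the 10 libraries gave p = 0.00794, the smallest p that 5 against 5 allows and the one that every gene without overlap has, so it adds nothing to the separation itself. Of the hepatocyte markers, Alb, which encodes albumin, ranged from 51507 to 92799 CPM at day 3 and 42695 to 77943 CPM at day 6 (log2 fold change −0.18, 95% interval −0.53 to 0.18, adjusted p = 0.812).

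Between day 3 and day 6 of PD feeding, 158 genes (0.778% of those tested) passed an adjusted p of 0.05 in HNKO liver with edgeR's quasi-likelihood test. Of these, 124 genes (0.611%) were higher and 34 genes (0.168%) were lower at day 6. The median log2 fold change was 0.91 over the higher genes, from 0.33 to 4.32, and 53 of them rose by more than 2-fold. The lower genes had a median of −0.57, from −2.18 to −0.26, and 11 fell by more than 2-fold. Over all 20297 genes the median was −0.01, and 2256 genes had an unadjusted p under 0.05. The 5 libraries of day 6 lay wholly above the 5 of day 3 for 245 genes (1.21%) and wholly below for 187 genes (0.921%). Of the 124 higher genes 81 did not overlap between the days, and of the 34 lower genes 23 did not. The size of the called set depended on which libraries were in the fit. It was 12 genes in a fit of the 10 HNKO libraries alone and 30 genes with all 40 libraries. It was 76, 38, 65, and 242 genes without HNKO day 3 library 3, 4, 22, and 23, and 83 and 47 genes without HNKO day 6 library 7 and 30. Within library numbers 1 to 21, with 3 libraries of day 3 and 2 of day 6, 1 gene passed, and within numbers 22 to 41, with 2 of day 3 and 3 of day 6, 6 genes passed. Of the 56 called genes named in the text, 20 were called in each of the 10 fits that left out 1 HNKO library. The fit of the 10 HNKO libraries alone called 5 of the 56, and that of all 40 libraries 17. Within the 2 series of numbers 0 and 4 were called.

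Acute phase genes held the most called members of the 40 gene lists examined. Of 25 acute phase genes tested, 8 rose between day 3 and day 6 in HNKO liver, none fell, and all 25 had log2 fold changes above 0. The median of the list was 0.66, against −0.01 over all tested genes and −0.14 for the same list in WT liver. The summed level of the 25 genes was 26333 to 44238 CPM in the HNKO libraries of day 3 and 49832 to 64776 CPM in those of day 6, without overlap. The WT sums were 30305 to 35012 CPM at day 3 and 28098 to 32618 CPM at day 6. In bulk RNA of this kind, more cells of a type and more RNA per cell cannot be told apart.

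The serum amyloid A genes, which encode acute phase apolipoproteins of high-density lipoprotein, lie next to each other on chromosome 7 and showed the largest changes of the list. Saa3 (chr7:46711998-46715700, minus strand) was measured at 3.67, 3.61, 1.84, 4.04, and 3.78 CPM at day 3 and 25.5, 9.18, 57.5, 38.01, and 31.8 CPM at day 6. All 5 libraries of day 6 were above all 5 of day 3, and library 29 was the highest and library 7 the lowest of day 6 (log2 fold change 3.25, SE 0.46, adjusted p = 0.000294). Saa1 (chr7:46740497-46742980, minus strand) was at 65.3, 334, 73.02, 125, and 76.2 CPM at day 3 and 952, 1685, 963, 668, and 1342 CPM at day 6. The lowest day 6 library was above the highest day 3 library, which was library 3 (log2 fold change 3.06, SE 0.54, adjusted p = 0.00417). Saa2 (chr7:46751790-46754313, plus strand) was at 52.1, 201, 34.2, 88.9, and 50.6 CPM at day 3 and 571, 1577, 682, 591, and 1188 CPM at day 6. The groups did not overlap, and libraries 7 and 31 were the highest of day 6 (log2 fold change 3.43, SE 0.55, adjusted p = 0.00197). Saa1 and Saa2 share 30.9% and 29.5% of their 51-base stretches with other genes, chiefly each other, so the split of reads between them is uncertain.

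**Figure D1:**
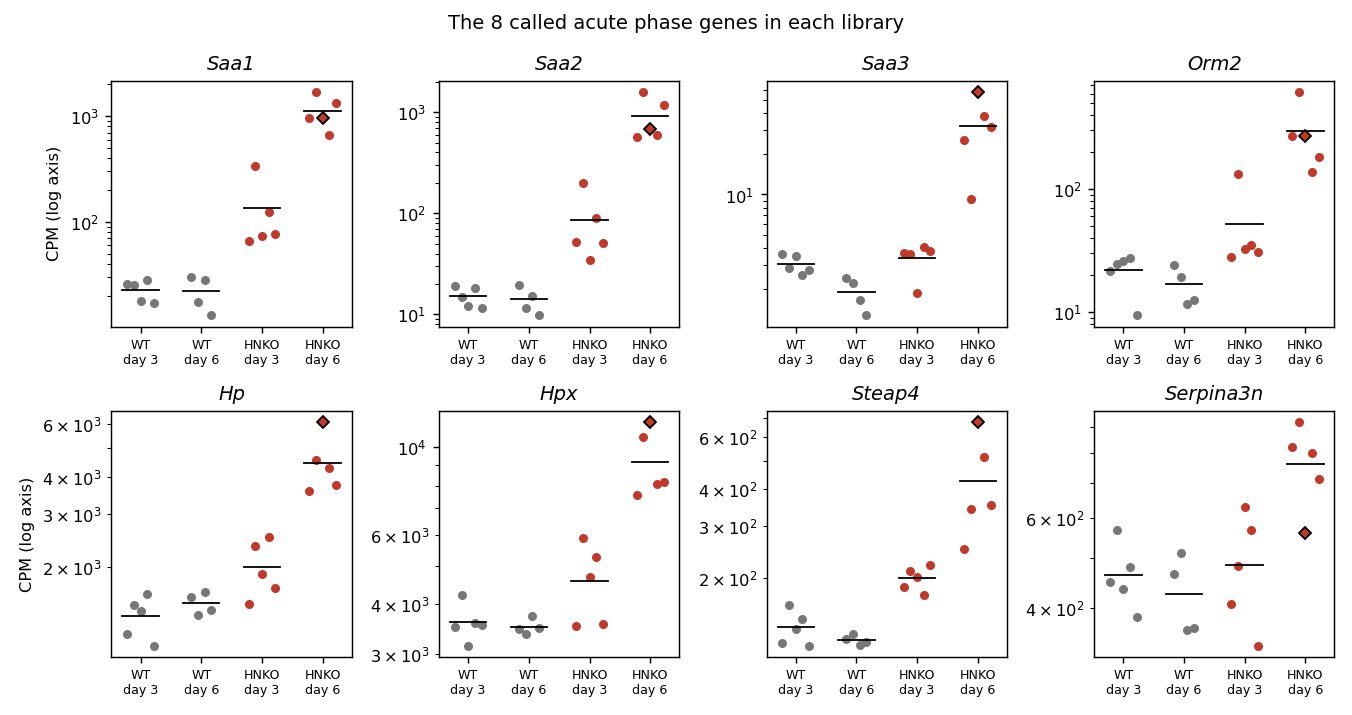
CPM on a log axis of the 8 acute phase genes called higher, in each library of WT and HNKO liver at days 3 and 6. Each point is 1 mouse, the black line is the group mean, and the diamond is HNKO day 6 library 29. The day 6 HNKO libraries lie above the day 3 HNKO libraries without overlap for 7 of the genes, while Serpina3n overlaps.

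Orm2, an orosomucoid gene on chromosome 4 (chr4:63362449-63365878, plus strand), rose as well, and with Serpina3n it was added to the named genes after the values were seen. Its levels were 28.2, 132, 32.6, 35.1, and 30.6 CPM at day 3 and 269, 615, 270.1, 138, and 183 CPM at day 6. Day 3 library 3 and day 6 library 7 stood far above the rest of their groups (log2 fold change 2.51, SE 0.53, adjusted p = 0.017). Without HNKO day 3 library 4 or 22, or day 6 library 7, the call was lost, and 22.2% of its 51-base stretches are shared, mostly with Orm1 and Orm3. Hp, which encodes the hemoglobin-binding haptoglobin, was at 1504, 2347, 1894, 2526, and 1703 CPM at day 3 and 3594, 4568, 6081, 4291, and 3760.4 CPM at day 6. Hpx, which encodes the heme-binding hemopexin, was at 3520.5, 5885, 4683, 5285, and 3571 CPM at day 3 and 7575, 10599, 11569, 8066, and 8182 CPM at day 6. Neither gene overlapped between the days, and the size of the rise was alike in both, at 2.24-fold for Hp (log2 fold change 1.16, SE 0.19, adjusted p = 0.00221) and 2.004-fold for Hpx (log2 fold change 1.003, SE 0.17, adjusted p = 0.00197). Steap4, a metalloreductase gene induced in inflammation, was at 186, 212, 202, 176, and 221 CPM at day 3 and 249.9, 344, 675, 513, and 355 CPM at day 6. Steap4 did not overlap, and library 29 was the highest (log2 fold change 1.101, SE 0.22, adjusted p = 0.00999). Serpina3n, an inhibitor of serine proteases, was at 407, 482, 629, 569, and 338 CPM at day 3 and 824, 919.7, 560.5, 803, and 713 CPM at day 6. Day 6 library 29 lay below the highest day 3 library for Serpina3n (log2 fold change 0.66, SE 0.15, adjusted p = 0.034). The call for Serpina3n was lost without any 1 of HNKO day 3 libraries 2, 3, and 23 and day 6 libraries 6, 7, and 30. Lcn2, which encodes the siderophore-binding lipocalin 2, was looked at after its values were seen, because its groups did not overlap. It was at 116, 315, 118, 92.1, and 128 CPM at day 3 and 372, 499, 654, 326, and 381 CPM at day 6 and missed the threshold (log2 fold change 1.54, SE 0.54, adjusted p = 0.197). By count, 8 of the 25 genes lay wholly higher at day 6 in HNKO liver, and 0 of the 25 in WT liver, where 168 of all tested genes (0.828%) lay wholly higher and 204 (1.01%) wholly lower. With a fit of the 10 HNKO libraries alone 2 of the 25 genes passed, within library numbers 1 to 21 none and within 22 to 41 2 did, and with any 1 library of either HNKO group left out 6 to 9 did.

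The sequences upstream of the 4 acute phase genes with the largest rises are shown because each of these genes was called higher at day 6. They come from RefSeq (GRCm38.p6), written 5′ to 3′ on the strand of the gene, and cover bases 250 to 51 before the annotated start. Of the 8 called genes 7 had an entry, and Hp had none. Capitals mark matches on either strand to TTGCNNAA, a pattern of C/EBP-type sites that 8.11% of 32851 windows of this length hold. The regions are chr7:46743031-46743230, minus strand, for Saa1, chr7:46751583-46751782, plus strand, for Saa2, chr7:46715727-46715926, minus strand, for Saa3, and chr4:63362199-63362398, plus strand, for Orm2.
Saa1: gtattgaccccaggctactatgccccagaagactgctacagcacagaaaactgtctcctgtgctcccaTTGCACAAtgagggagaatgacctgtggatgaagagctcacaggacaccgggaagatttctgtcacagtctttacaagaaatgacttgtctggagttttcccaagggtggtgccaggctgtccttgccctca
Saa2: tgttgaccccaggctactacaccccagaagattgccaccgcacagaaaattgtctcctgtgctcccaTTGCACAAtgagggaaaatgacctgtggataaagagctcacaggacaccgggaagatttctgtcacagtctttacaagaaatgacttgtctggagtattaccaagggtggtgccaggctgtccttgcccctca
Saa3: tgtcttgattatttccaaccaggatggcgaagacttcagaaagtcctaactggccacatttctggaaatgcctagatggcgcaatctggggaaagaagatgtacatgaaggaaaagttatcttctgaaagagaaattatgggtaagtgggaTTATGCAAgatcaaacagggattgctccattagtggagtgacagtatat
Orm2: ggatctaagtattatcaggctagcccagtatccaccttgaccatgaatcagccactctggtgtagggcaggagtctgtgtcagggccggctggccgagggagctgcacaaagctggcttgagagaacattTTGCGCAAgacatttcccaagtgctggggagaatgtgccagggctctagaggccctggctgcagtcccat
The pattern was chosen with these windows in view, so the matches are a description of the letters only. The windows of Saa1 and Saa2 were identical at 93.5% of aligned positions, and those of Saa1 and Saa3 at 51%. Of the 7 windows 6 held the pattern, all 4 printed ones among them.

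Among the ligands, receptors, and signal carriers upstream of the acute phase genes, few members passed. Socs3, the STAT3-induced feedback inhibitor of IL-6 signaling, was the only 1 of 21 tested genes of the IL-6 family and STAT3 list to rise, and no member fell. It was at 12.6, 15.8, 19.8, 26.5, and 13.4 CPM at day 3 and 85.9, 45.5, 47.02, 65.4, and 94.1 CPM at day 6. Socs3 did not overlap between the days (log2 fold change 1.94, SE 0.42, adjusted p = 0.0227). The call was lost without HNKO day 3 library 2, 3, or 4. The median of the list was 0.30, with 16 of 21 genes above 0. Il1r1, the receptor of IL-1, was the only 1 of 25 genes of the TNF, IL-1, and NF-kB list to rise. It was at 40.2, 50.2, 41.3, 78.9, and 46.6 CPM at day 3 and 77.8, 80.97, 70.7, 102, and 71.3 CPM at day 6. Day 3 library 22 lay within the range of day 6 for Il1r1 (log2 fold change 0.65, SE 0.15, adjusted p = 0.034). Without HNKO day 3 library 2, 3, or 4 or day 6 library 7 or 30 the call for Il1r1 was lost. The median of that list was 0.43, with 23 of 25 genes above 0 and 14 at an unadjusted p under 0.05. Il17ra, the receptor of IL-17 and in neither list, was at 21.1, 26.9, 25.1, 27.1, and 23.2 CPM at day 3 and 28.3, 44.3, 38.9, 40.3, and 34.7 CPM at day 6. Il17ra rose by a small amount without overlap (log2 fold change 0.596, SE 0.095, adjusted p = 0.00197). Its call was kept without any single HNKO library. The call was lost in a fit of the 10 HNKO libraries alone and within either series of library numbers.

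Some markers of neutrophils rose in the same comparison. Of the 12 neutrophil markers listed, 7 had enough counts to be tested, 3 of these rose, and all 7 were above 0 with a median of 1.98, against −0.16 in WT liver. Csf3r, the receptor of G-CSF, was at 6.62, 5.98, 3.604, 3.95, and 7.25 CPM at day 3 and 10.6, 12.9, 27.9, 21.4, and 9.62 CPM at day 6. Csf3r did not overlap between the days (log2 fold change 1.59, SE 0.29, adjusted p = 0.00636). Mmp9, a gelatinase that neutrophils store in granules, was at 2.001, 1.16, 0.778, 0.972, and 1.61 CPM at day 3 and 2.91, 3.51, 8.06, 6.601, and 2.701 CPM at day 6. Mmp9 did not overlap between the days (log2 fold change 1.87, SE 0.35, adjusted p = 0.00726). S100a9, a calcium-binding protein of neutrophil cytosol, was at 1.24, 2.75, 0.532, 1.21, and 1.95 CPM at day 3 and 3.37, 5.39, 13.7, 8.93, and 3.52 CPM at day 6. Library 29 was again the highest for S100a9 (log2 fold change 2.19, SE 0.46, adjusted p = 0.017). The call for S100a9 was lost without HNKO day 3 library 4 or 22 or day 6 library 29 or 30. The other 5 markers, Ly6g, Elane, Camp, Ngp, and Mpo, had 0 to 8 counts in each of the 10 HNKO libraries, except for 53 counts of Ngp in day 6 library 7. The summed level of the 7 tested markers was 5.65 to 13.2 CPM at day 3 and 19.1 to 60.7 CPM at day 6 in HNKO liver, and 4.80 to 7.67 CPM over the WT libraries of both days. The number of neutrophil markers called was 0 in a fit of the 10 HNKO libraries alone and with all 40 libraries, and 5 without HNKO day 3 library 23 or day 6 library 6 or 31.

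**Figure D2:**
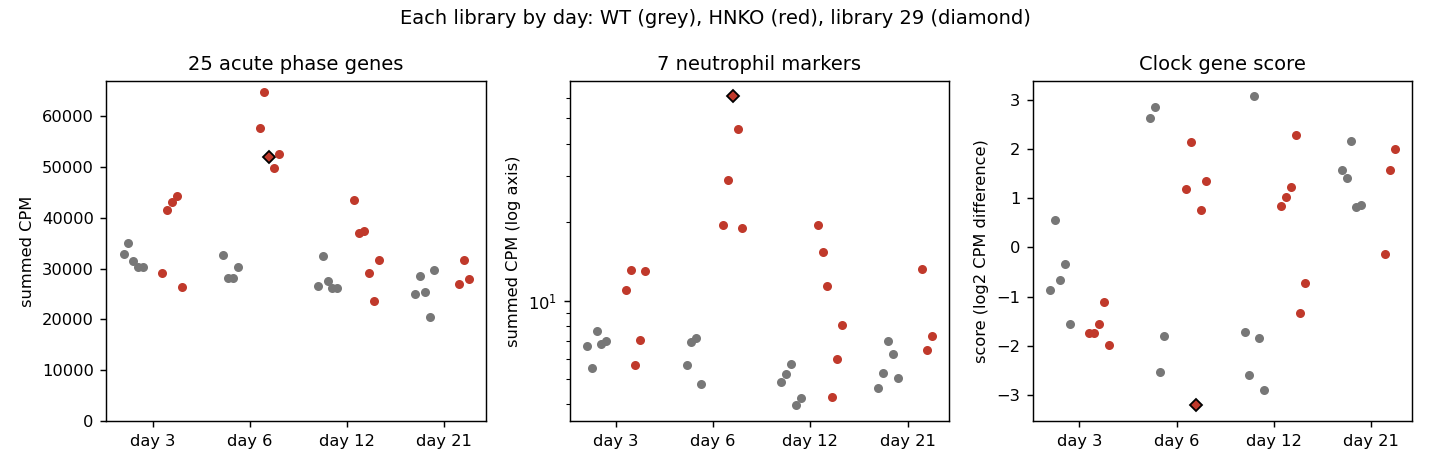
Summed CPM of the 25 acute phase genes, summed CPM of the 7 tested neutrophil markers on a log axis, and the clock gene score, a difference on the log2 CPM scale, in each library of the fit by day. The HNKO libraries of day 6 hold the highest sums of the acute phase genes and of the neutrophil markers at either early day, and library 29, the diamond, has the lowest clock score.

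Chemokines and their receptors had 3 of 27 tested members higher and none lower, with a median of 0.54. Cxcr2, the receptor that draws neutrophils toward CXC chemokines, was at 0.655, 0.473, 0.287, 0.243, and 0.565 CPM at day 3 and 1.55, 1.91, 5.06, 4.496, and 1.38 CPM at day 6. For Cxcr2 the change on the log2 scale was 2.69, with SE 0.53 and adjusted p = 0.0104. Ccr1, a receptor of CC chemokines on myeloid cells, was at 1.09, 1.505, 0.4095, 0.273, and 1.61 CPM at day 3 and 1.55, 2.9002, 8.13, 5.12, and 2.48 CPM at day 6. Ccr1 overlapped between the days (log2 fold change 2.07, SE 0.505, adjusted p = 0.039). Ccl6, a CC chemokine of macrophages and other myeloid cells, was at 10.3, 15.8, 9.54, 9.93, and 14.2 CPM at day 3 and 20.2, 19.7, 40.5, 26.6, and 18.01 CPM at day 6. For Ccl6 the change on the log2 scale was 1.07, with SE 0.200 and adjusted p = 0.00726. Cxcr2 and Ccl6 did not overlap between the days. The call for Ccr1 held in 3 of the 10 fits that leave out 1 HNKO library and was lost without day 3 libraries 2, 3, 4, and 22 and day 6 libraries 7, 29, and 30, whereas Cxcr2 and Ccl6 were called in all 10.

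Slfn4, a Schlafen gene of myeloid cells (chr11:83175186-83190216, plus strand), had the smallest adjusted p of all genes in the comparison. It was at 0.982, 1.59, 0.778, 0.972, and 2.04 CPM at day 3 and 4.87, 4.57, 14.1, 15.7, and 7.12 CPM at day 6. The lowest day 6 library was more than 2-fold above the highest day 3 library (log2 fold change 2.87, SE 0.38, adjusted p = 0.000222). F13a1, which encodes the A subunit of coagulation factor XIII and is made by monocytes and macrophages, was at 0.946, 2.36, 0.491, 1.06, and 1.69 CPM at day 3 and 3.77, 7.097, 14.9, 6.89, and 3.74 CPM at day 6. F13a1 did not overlap between the days (log2 fold change 2.48, SE 0.51, adjusted p = 0.0128), and lost its call without HNKO day 3 library 4. Chil3, a chitinase-like protein of activated macrophages, was the only 1 of 12 markers of recruited monocytes and macrophages to rise. It was at 0.364, 1.55, 0.614, 0.881, and 0.999 CPM at day 3 and 1.14, 2.83, 5.895, 7.45, and 2.39 CPM at day 6. Chil3 overlapped between the days (log2 fold change 2.16, SE 0.53, adjusted p = 0.039), and 26.2% of its 51-base stretches are shared with Chil4 and a predicted gene. The call for Chil3 was lost without HNKO day 3 library 2, 4, or 22 or day 6 library 7, 29, or 30. Of the 12 markers 11 were above 0, with a median of 0.63 against −0.32 in WT liver, and 4 were higher at an unadjusted p under 0.05. Their summed level was 117 to 272 CPM at day 3 and 163 to 436 CPM at day 6 in HNKO liver, and the groups overlapped. Of 11 Kupffer cell markers none passed, although all 11 were above 0 with a median of 0.40, and their sum was 711 to 963 CPM at day 3 and 882 to 1180.1 CPM at day 6. Cd5l, a scavenger-like protein that resident macrophages secrete, was nearest to the threshold of these, at 135 to 234 CPM at day 3 and 238 to 298 CPM at day 6 (log2 fold change 0.65, 95% interval 0.27 to 1.03, adjusted p = 0.0856). The part of the myeloid markers in the other results was not tested.

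Further called genes of leukocytes and endothelium were picked out after their values were seen. Pirb, Lilr4b, Cd300lf, and Clec4d, which encode receptors of myeloid cells, had log2 fold changes of 0.97, 0.99, 1.33, and 2.25. Fgr, a tyrosine kinase of myeloid cells, Itgb2, the beta chain of leukocyte integrins, Ncf1, a subunit of the phagocyte NADPH oxidase, and Csf2rb, the shared receptor chain of GM-CSF and IL-3, had 0.83, 0.77, 0.83, and 0.76. Selp, the P-selectin of endothelium and platelets, had 0.96. Olr1, a receptor of oxidized low-density lipoprotein, and Il33, an alarmin of the IL-1 family, had 2.53 and 0.92. All 11 passed the threshold, with adjusted p from 0.00894 for Cd300lf to 0.0471 for Fgr. Cd300lf alone of them stayed called in every fit that left out 1 HNKO library. Cd163, the macrophage receptor of haptoglobin-hemoglobin, also chosen in this way, was at 13.6, 25.1, 20.1, 21.8, and 16.7 CPM at day 3 and 47.5, 20.6, 28.03, 42.4, and 38.2 CPM at day 6. Cd163 overlapped between the days (log2 fold change 0.86, SE 0.21, adjusted p = 0.044), and was called in 3 of the 10 fits without 1 library. Pirb, Lilr4b, and Csf2rb share 33.6%, 24.1%, and 12% of their 51-base stretches with related genes.

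Markers of the other cell types that liver holds did not pass. None of the 12 T and NK cell markers was called (median 0.24), nor any of the 7 tested B and plasma cell markers (0.40), 12 endothelial markers (0.03), 12 stellate and myofibroblast markers (0.03), or 8 erythroid markers (0.64). As in the myeloid lists, most lymphoid and erythroid markers were above 0, with 11 T and NK cell, all 7 B and plasma cell, and all 8 erythroid markers. Of the endothelial markers 6 were above 0, and of the stellate and myofibroblast markers 8, beside 9861 of all 20297 tested genes. In these lists Cd3g of the T cell receptor complex was at 0.738 to 1.31 CPM at day 3 and 1.18 to 1.42 CPM at day 6, the endothelial scavenger receptor gene Stab1 at 122 to 137 CPM at day 3 and 129 to 187 CPM at day 6, and the smooth muscle actin gene Acta2 at 2.28 to 8.22 CPM at day 3 and 4.11 to 21.6 CPM at day 6. The summed B and plasma cell markers reached 132 CPM in HNKO day 6 library 7, against 18.3 to 32.2 CPM in the other libraries of that group.

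**Figure D3:**
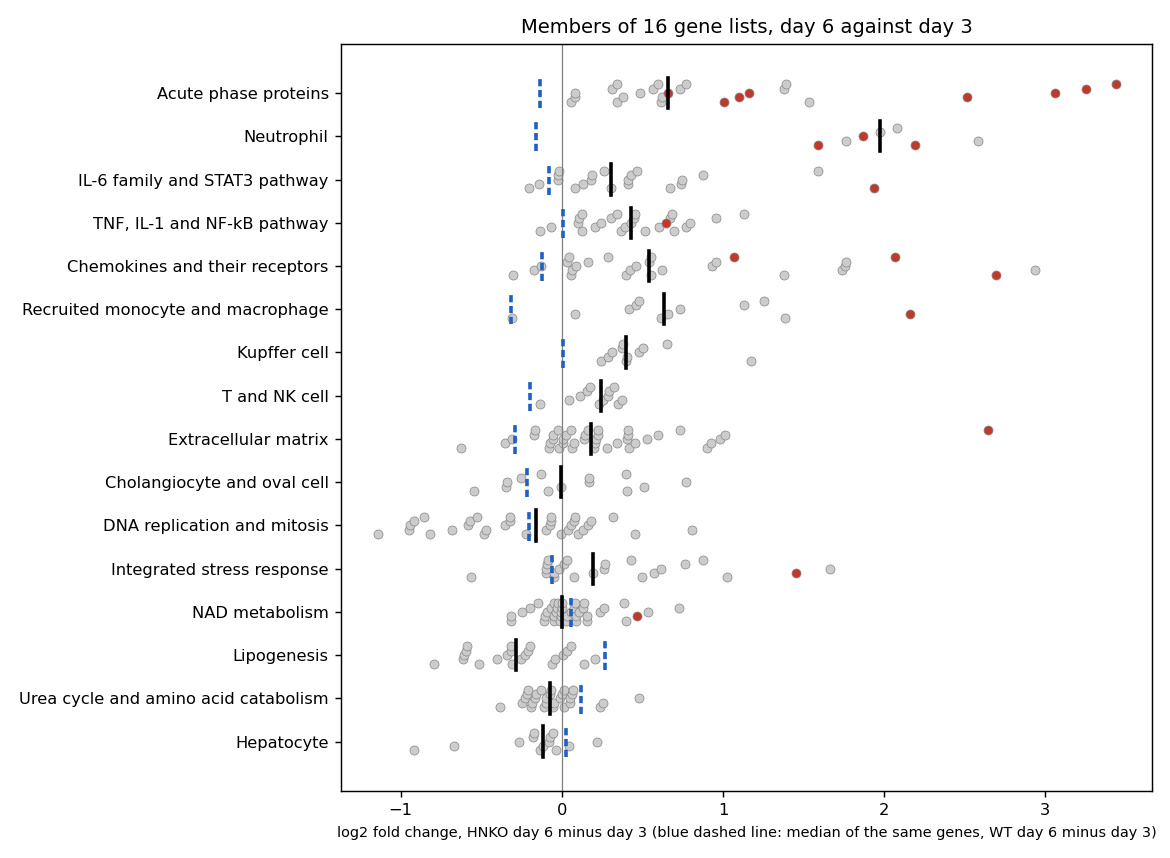
Log2 fold changes of HNKO day 6 over day 3 for the tested members of 16 gene lists. Each point is a gene, red points passed an adjusted p of 0.05, the black bar is the median of the list, and the blue dashed bar is the median of the same genes in WT liver. The neutrophil list, with a median of 1.98, lies furthest to the right. The acute phase (0.66), recruited monocyte and macrophage (0.63), and chemokine (0.54) lists come next. The hepatocyte list lies near 0 (−0.12), with 11 of its 13 genes below 0.

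The remaining genes with the smallest p-values among those higher at day 6 belonged to no list. Fzd5, a Frizzled receptor of Wnt ligands, was at 7.97, 6.23, 7.82, 7.38, and 5.99 CPM at day 3 and 10.1, 9.83, 11.1, 12.1, and 12.3 CPM at day 6. The groups did not overlap (log2 fold change 0.65, SE 0.11, adjusted p = 0.00197), and HNKO liver was below WT liver at day 3, with log2 fold changes of −0.53 at day 3 (adjusted p = 0.00454) and 0.03 at day 6 (adjusted p = 0.889). Sema4b, a transmembrane semaphorin, was at 11.8, 10.4, 10.6, 10.8, and 9.21 CPM at day 3 and 14.6, 16.002, 15.7, 14.8, and 12.9 CPM at day 6. Sema4b did not overlap between the days (log2 fold change 0.48, SE 0.08, adjusted p = 0.00417). Slc37a1, a glucose-6-phosphate carrier of the endoplasmic reticulum, was at 2.91, 5.37, 6.02, 9.78, and 5.13 CPM at day 3 and 17.1, 18.3, 15.2, 16.6, and 11.9 CPM at day 6. The 5 libraries of day 6 lay close together above those of day 3 (log2 fold change 1.43, SE 0.26, adjusted p = 0.0047). Nxpe5 was at 0.182, 0.08599, 0.164, 0.121, and 0.1303 CPM at day 3 and 0.591, 1.16, 1.93, 0.455, and 0.816 CPM at day 6. Nxpe5 did not overlap (log2 fold change 2.85, SE 0.51, adjusted p = 0.0047), but rests on 2 to 5 counts in each day 3 library and 8 to 83 in each of day 6, and DESeq2 gave it no adjusted p. These 4 genes were called in each of the 10 fits without 1 HNKO library. In a fit of the 10 HNKO libraries alone Fzd5, Sema4b, and Slc37a1 lost the call. Of the other called genes named, Ccr1, Clec4d, Cxcr2, and Olr1 had a day 3 library with under 10 counts. Exons of Fzd5 and of Slc37a1 each overlap those of an unnamed gene on the opposite strand.

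Single members of several metabolic and stress lists rose. Hmox1, the heme oxygenase that breaks down heme, was the only 1 of 25 NRF2 targets and of 18 genes of metallothioneins and iron handling to pass. It was at 21.9, 32.2, 27.6, 25.9, and 20.9 CPM at day 3 and 45.6, 45.4, 75.8, 66.1, and 40.1 CPM at day 6. Hmox1 did not overlap between the days (log2 fold change 1.09, SE 0.22, adjusted p = 0.0128). Trib3, a pseudokinase induced by ATF4, was the only 1 of 23 genes of the integrated stress response. It was at 5.64, 2.79, 3.32, 4.68, and 4.43 CPM at day 3 and 12.2, 10.2, 5.34, 13.5, and 16.4 CPM at day 6. For Trib3 library 29 fell into the day 3 range, and the other 4 day 6 libraries lay above it (log2 fold change 1.46, SE 0.28, adjusted p = 0.00894). Cd38, an enzyme that consumes NAD, was the only 1 of 39 genes of NAD metabolism. It was at 20.1, 22.96, 21.4, 19.7, and 21.8 CPM at day 3 and 28.6, 26.9, 36.6, 26.6, and 27.8 CPM at day 6. Cd38 did not overlap between the days (log2 fold change 0.47, SE 0.104, adjusted p = 0.0264), and the median of that list was 0.00. Cd38 lost its call without HNKO day 3 library 2, 4, or 22 or day 6 library 29. Hmox1 and Trib3 kept theirs without any single HNKO library, but lost them in a fit of the 10 HNKO libraries alone.

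F3, tissue factor, the starter of coagulation, was the only 1 of 37 YAP and actin cytoskeleton genes to rise, with a list median of 0.06. It was at 5.17, 4.64, 3.77, 2.92, and 4.04 CPM at day 3 and 8.59, 6.35, 5.31, 6.83, and 7.54 CPM at day 6. F3 did not overlap between the days (log2 fold change 0.75, SE 0.18, adjusted p = 0.0355). Hk3, a hexokinase of leukocytes, was the only 1 of 27 genes of glucose metabolism, with a list median of 0.07. It was at 7.86, 8.64, 8.64, 9.51, and 8.95 CPM at day 3 and 13.2, 11.3, 16.96, 16.2, and 10.7 CPM at day 6. For Hk3 the change on the log2 scale was 0.65, with SE 0.15 and adjusted p = 0.0316. Gbp2, a guanylate-binding protein, was the only 1 of 26 interferon-stimulated genes, with a list median of 0.08. It was at 15.2, 17.7, 17.5, 13.5, and 18.6 CPM at day 3 and 18.4, 32.2, 31.3, 29.7, and 20.7 CPM at day 6. Day 6 library 6 lay within the day 3 range for Gbp2 (log2 fold change 0.68, SE 0.17, adjusted p = 0.0471). These 3 calls held in only 3 or 4 of the 10 fits that leave out 1 HNKO library, and each was lost without day 3 library 3, 4, or 22 or day 6 library 30.

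Lists of hepatocyte function and of ductular reaction held no called gene. These were the 38 PPARA targets and fatty acid oxidation genes (median 0.03), 22 lipogenesis genes (−0.28), 25 cholesterol synthesis genes (−0.09), 23 genes of bile acid synthesis and transport (−0.14), 43 tested genes of cytochrome P450 families 1 to 3 (−0.16), 28 genes of the urea cycle and amino acid catabolism (−0.07), 36 complement and coagulation genes (0.00), and 13 hepatocyte markers (−0.12). Of the members nearest to the threshold, Nr0b2, the small heterodimer partner of bile acid feedback, was at 29.9 to 41.97 CPM at day 3 and 19.1 to 27.2 CPM at day 6 (log2 fold change −0.68, 95% interval −1.17 to −0.198, adjusted p = 0.197), and Cyp3a11, a drug-metabolizing P450, at 934 to 2007 CPM at day 3 and 651 to 1178 CPM at day 6 (log2 fold change −0.67, 95% interval −1.096 to −0.24, adjusted p = 0.131). Acot3, a peroxisomal acyl-CoA thioesterase, was at 5.203 to 24.1 CPM at day 3 and 9.76 to 82.3 CPM at day 6 (log2 fold change 1.73, 95% interval 0.62 to 2.83, adjusted p = 0.135), and shares 18.9% of its 51-base stretches with related genes. The intervals of these 3 genes leave room for changes of more than 2-fold.

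Of 13 tested markers of cholangiocytes and oval cells none passed, with a median of 0.00 and 8 called against WT at each of the 2 days. Spp1, osteopontin, was at 379.7, 276, 110.0, 101, and 359 CPM at day 3 and 152, 195, 728, 284, and 264 CPM at day 6. Library 29 stood above all others (log2 fold change 0.41, 95% interval −0.28 to 1.09, adjusted p = 0.755). Without library 29 its log2 fold change was −0.12. Epcam, an adhesion molecule of biliary epithelium, was at 2.73 to 5.602 CPM at day 3 and 3.48 to 6.15 CPM at day 6 (log2 fold change 0.17, 95% interval −0.41 to 0.75, adjusted p = 0.91). Sox9, a transcription factor of biliary cells, was at 4.53 to 6.73 CPM at day 3 and 3.46 to 9.51 CPM at day 6 (log2 fold change −0.09, 95% interval −0.62 to 0.44, adjusted p = 0.955). Krt7, a biliary keratin, was at 1.12 to 5.57 CPM at day 3 and 1.52 to 4.08 CPM at day 6 (log2 fold change −0.00, 95% interval −0.82 to 0.81, adjusted p = 0.998), and Ncam1, an adhesion molecule of reactive ductules, at 1.09 to 5.65 CPM at day 3 and 1.71 to 3.68 CPM at day 6 (log2 fold change −0.35, 95% interval −1.199 to 0.51, adjusted p = 0.859). The direction of Spp1, Epcam, Sox9, and Krt7 turned under other fits. The summed cholangiocyte and oval cell markers were 129 to 438 CPM at day 3 and 186 to 799 CPM at day 6 in HNKO liver, and 46.7 to 71.8 CPM over the WT libraries of both days.

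No gene of the 32 for DNA replication and mitosis passed (median −0.16), nor of the 22 tested immediate early genes (0.37), 22 p53 targets (0.07), 25 chaperones of the endoplasmic reticulum and heat shock (−0.08), or 20 cell death effectors (0.24). Kif20a, a mitotic kinesin, was at 11.1, 7.87, 2.62, 0.942, and 10.6 CPM at day 3 and 3.87, 3.86, 5.57, 1.71, and 1.998 CPM at day 6. The day 3 libraries of Kif20a spread more widely than its day 6 libraries (log2 fold change −0.94, 95% interval −1.805 to −0.08, adjusted p = 0.38). Ier3, an immediate early gene, was at 0.901 to 4.86 CPM at day 3 and 3.28 to 13.6 CPM at day 6 (log2 fold change 1.45, 95% interval 0.63 to 2.27, adjusted p = 0.0733). Sesn1, a p53 target, was at 12.6 to 20.9 CPM at day 3 and 21.4 to 23.9 CPM at day 6, without overlap, and missed the threshold (log2 fold change 0.37, 95% interval 0.15 to 0.59, adjusted p = 0.105). Bid, a proapoptotic BH3 protein, was at 12.1 to 14.03 CPM at day 3 and 14.8 to 20.3 CPM at day 6, also without overlap (log2 fold change 0.44, 95% interval 0.15 to 0.72, adjusted p = 0.149). Perp, a p53 target of cell adhesion, was at 67.1 to 84.9 CPM at day 3 and 58.6 to 71.6 CPM at day 6 (log2 fold change −0.24, 95% interval −0.42 to −0.06, adjusted p = 0.234).

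The 34 genes lower at day 6 were changed by smaller amounts. None of the 40 lists held a called lower member. Sorbs2os, a transcript antisense to Sorbs2 (chr8:45723325-45819297, minus strand), was at 8.44, 6.23, 7.82, 6.23, and 10.2 CPM at day 3 and 3.46, 2.42, 5.13, 3.47, and 2.701 CPM at day 6. Sorbs2os did not overlap between the days (log2 fold change −1.17, SE 0.22, adjusted p = 0.00776). Sox5, a transcription factor of the SOX family, was at 46.01, 42.7, 47.9, 54.5, and 41.5 CPM at day 3 and 34.3, 32.2, 31.3, 37.4, and 38.2 CPM at day 6. For Sox5 the change on the log2 scale was −0.42, with SE 0.08 and adjusted p = 0.0106. Kcnq1ot1, the imprinted antisense transcript of the Kcnq1 domain (chr7:143203458-143296549, minus strand), was at 207, 269, 236, 237, and 238 CPM at day 3 and 181, 182, 186, 170.3, and 156 CPM at day 6. For Kcnq1ot1 the change on the log2 scale was −0.44, with SE 0.097 and adjusted p = 0.0248. Neither Sox5 nor Kcnq1ot1 overlapped between the days. Exons of Sorbs2os, Sox5, and Kcnq1ot1 overlap those of genes on the opposite strand, and the use of strand in counting is not given in the sources used here, so their counts are uncertain. Sox5 lost its call without HNKO day 3 library 22, and Kcnq1ot1 without day 3 library 3 or 4 or day 6 library 30.

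The other 9 lower genes with the smallest p-values were in none of the lists. Nsd1, a methyltransferase of histone H3 lysine, was at 201, 223, 221, 214, and 198 CPM at day 3 and 177, 170.4, 184, 176, and 179 CPM at day 6. Nsd1 did not overlap between the days (log2 fold change −0.26, SE 0.06, adjusted p = 0.0282). Phc3, a Polycomb protein, was at 72.2, 71.7, 76.9, 76.3, and 76.6 CPM at day 3 and 60.1, 58.6, 62.8, 62.1, and 61.2 CPM at day 6. Phc3 did not overlap between the days (log2 fold change −0.29, SE 0.07, adjusted p = 0.0271). Atad2b, a bromodomain ATPase, was at 49.9 to 59.96 CPM at day 3 and 36.7 to 46.5 CPM at day 6 (log2 fold change −0.31, SE 0.07, adjusted p = 0.0299). Zbtb33, which encodes the methyl-DNA-binding factor Kaiso, was at 13.6, 18.2, 15.9, 17.7, and 13.5 CPM at day 3 and 10.004, 10.5, 11.7, 12.1, and 10.04 CPM at day 6 (log2 fold change −0.54, SE 0.12, adjusted p = 0.033), and its log2 fold change in WT liver was −0.55. Nat10, an RNA acetyltransferase, was at 24.99 to 30.9 CPM at day 3 and 19.2 to 25.6 CPM at day 6 (log2 fold change −0.36, adjusted p = 0.033), and Exph5, a Rab27 effector, at 38.8 to 61.5 CPM at day 3 and 26.9 to 39.1 CPM at day 6 (log2 fold change −0.59, adjusted p = 0.0264). Clic3, a chloride intracellular channel protein, was at 2.66 to 10.02 CPM at day 3 and 1.16 to 3.798 CPM at day 6 (log2 fold change −1.47, adjusted p = 0.0287), P2rx3, an ATP-gated ion channel, at 1.35 to 2.31 CPM at day 3 and 0.887 to 1.32 CPM at day 6 (log2 fold change −0.75, adjusted p = 0.034), and Shroom2, an actin-binding protein, at 43.3 to 54.1 CPM at day 3 and 33.8 to 41.2 CPM at day 6 (log2 fold change −0.37, adjusted p = 0.0355). These 9 genes were less secure than the top of the higher set. Each lost its call in at least 4 of the 10 fits without 1 HNKO library, and all 9 lost it without day 6 library 7 or 30. Without day 3 library 3, 4, and 22, 7, 8, and 8 of the 9 lost it. Exons of Zbtb33 and P2rx3 overlap a gene on the opposite strand. Irs1, the insulin receptor substrate, and S1pr1, a sphingosine 1-phosphate receptor of endothelium, were picked after their values were seen. Irs1 was at 43.1, 55.1, 63.97, 55.9, and 40.4 CPM at day 3 and 31.7, 23.6, 39.1, 34.1, and 30.6 CPM at day 6. Irs1 did not overlap between the days (log2 fold change −0.699, SE 0.17, adjusted p = 0.0355). S1pr1 was at 77.5, 97.5, 139, 105, and 73.8 CPM at day 3 and 74.5, 59.98, 66.9, 71.9, and 64.96 CPM at day 6. S1pr1 overlapped between the days (log2 fold change −0.54, SE 0.13, adjusted p = 0.0434). The calls for Irs1 and S1pr1 each held in 3 of the 10 such fits.

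**Figure D4:**
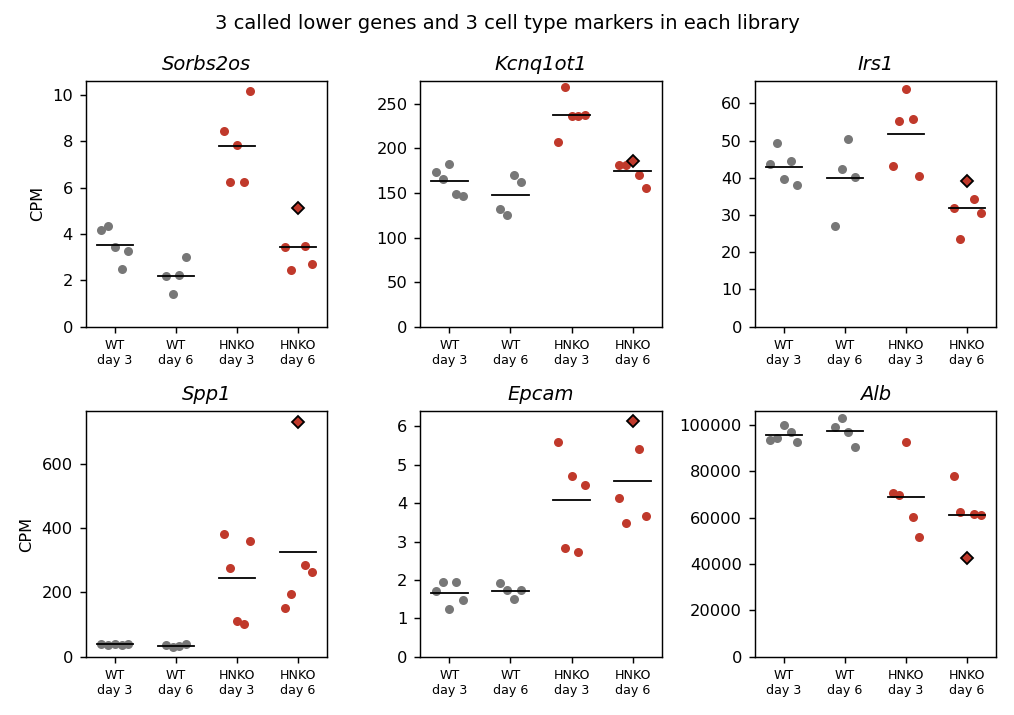
CPM of 3 genes called lower (Sorbs2os, Kcnq1ot1, Irs1) and of 3 cell type markers that were not called (Spp1, Epcam, Alb) in each library of WT and HNKO liver at days 3 and 6. Each point is 1 mouse, the black line is the group mean, the diamond is HNKO day 6 library 29, and the axes start at 0. Library 29 has the highest Spp1 and the lowest Alb of its group.

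Of the 124 higher genes 119 were protein coding (96%), and of the 34 lower genes 22 were (64.7%), beside 71.8% of all tested genes. The median genomic span was 18150 bases for the higher and 43231 bases for the lower genes, beside 15031 bases for all tested genes. Symbols of predicted or numbered gene models made up 7 of the 124 higher and 8 of the 34 lower genes, beside 5496 of all 20297 tested genes. None of these differences was tested.

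In WT liver no gene (0%) passed the threshold between day 6 and day 3, by a contrast of WT libraries alone, within the same model and with the same dispersion estimates as the HNKO comparison. There were 1063 genes at an unadjusted p under 0.05 with edgeR, and DESeq2 called 5. The 124 genes higher in HNKO liver had a median log2 fold change of 0.01 in WT liver, and 67 of them were above 0. Of the 34 genes lower in HNKO liver, 32 were below 0 in WT liver too (94.1%), with a median of −0.22, and 14 had an unadjusted p under 0.05. Of all tested genes 49.4% were below 0 in WT liver, and of those below 0 in HNKO liver 54.0% were. Zbtb33 had nearly the same estimate in both genotypes, −0.54 in HNKO and −0.55 in WT liver, and Sorbs2os had −1.17 and −0.68.

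**Figure D5:**
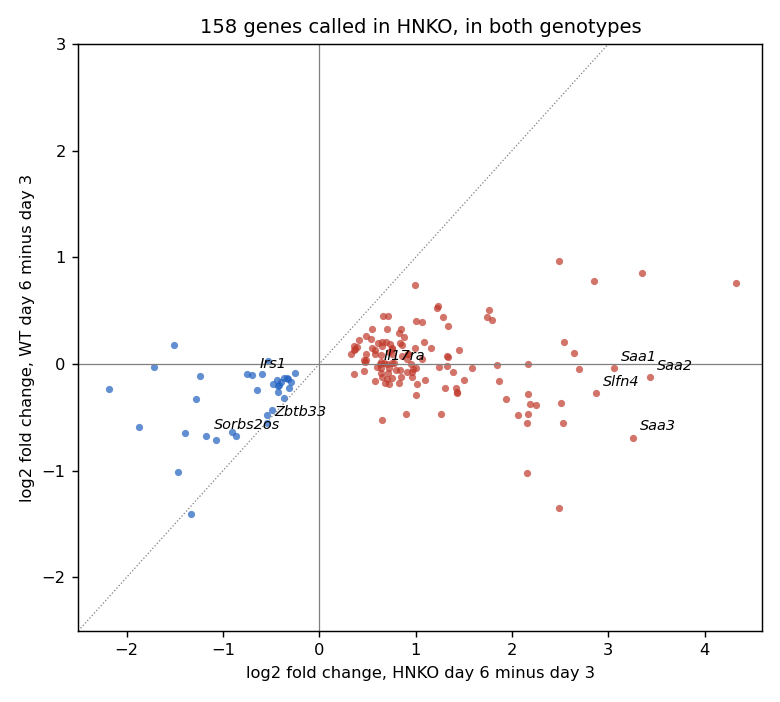
Log2 fold change of day 6 over day 3 in WT liver against that in HNKO liver for the 158 genes called in HNKO liver. Red points are the 124 higher and blue points the 34 lower genes, and the dotted line marks equal values. The red points spread around a WT median of 0.01, and 32 of the 34 blue points lie below 0 in WT liver.

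A test of the difference between the genotypes in the day 6 over day 3 change called 1 gene (0.00493%), Saa3 (log2 difference 3.94, SE 0.68, adjusted p = 0.0294). Its log2 fold change was 3.25 in HNKO and −0.69 in WT liver, where it was at 3.03 ± 0.493 CPM at day 3 (SD, n = 5) and 1.88 ± 0.514 CPM at day 6 (SD, n = 4). Without single libraries of the 4 groups in turn the adjusted p for Saa3 reached 0.189, without WT day 6 library 28, and it was 0.142 with all 40 libraries, 0.999996 within library numbers 1 to 21, and 0.194 within 22 to 41. It was also above 0.05 without WT day 3 library 1, 5, or 24, HNKO day 3 library 2 or 4, WT day 6 library 10 or 27, or HNKO day 6 library 30 or 31. The genes next in order were Il1r1 (log2 difference 1.17, SE 0.22, adjusted p = 0.0668), Slfn4 (log2 difference 3.14, SE 0.61, adjusted p = 0.0668), Saa2 (log2 difference 3.56, SE 0.77, adjusted p = 0.166), F13a1 (log2 difference 3.83, SE 0.84, adjusted p = 0.166), and B3galt1 (log2 difference 1.41, SE 0.31, adjusted p = 0.166). B3galt1, a beta-1,3-galactosyltransferase, was at 22.99, 13.9, 16.1, 18.1, and 18.2 CPM at day 3 and 34.9, 28.7, 15.6, 37.3, and 26.1 CPM at day 6, and was not called within HNKO liver (log2 fold change 0.67, adjusted p = 0.136). At an unadjusted p under 0.05 there were 1082 genes, and DESeq2 called 13, of which 9 were among the 124 higher genes. The difference contains the HNKO change that chose those genes, from the same 10 libraries, so their number among its calls is a description only. The 6 genes named here passed with DESeq2, Saa3 (adjusted p = 7.42e-05), Slfn4 (adjusted p = 0.00145), Il1r1 (adjusted p = 0.00225), F13a1 (adjusted p = 0.00642), Saa2 (adjusted p = 0.0103), and B3galt1 (adjusted p = 0.0159). With edgeR, Slfn4 and Il1r1 also passed without the filter and with the clock score as a covariate, and Il1r1 with at least 10 counts in each HNKO library.

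The comparisons of HNKO with WT liver at the 2 days share libraries with the comparison of days and are given beside it. At day 3, 945 genes (4.66%) differed between the genotypes, and at day 6, 2596 genes (12.8%). The 124 higher genes had a median log2 fold change of HNKO over WT of 0.13 at day 3, where 3 were called above and 13 below WT, and of 0.996 at day 6, where 87 were called above and none below. Of all 20297 tested genes, 598 were called above and 347 below WT at day 3, and 1709 above and 887 below at day 6. The 34 lower genes had medians of 0.21 at day 3 and −0.08 at day 6. Both sets were chosen by the difference between the same HNKO libraries of day 3 and day 6. Their shift against WT between the days is therefore partly set by that choice, and these counts and medians are a description only. Trib3 was among the genes that were lower than WT at day 3 and near it at day 6, with −1.49 at day 3 (adjusted p = 0.00311) and −0.17 at day 6 (adjusted p = 0.765). Saa2 was above WT by 2.48 at day 3 (adjusted p = 0.00697) and 6.03 at day 6 (adjusted p = 2.20e-06), and Saa1 by 2.57 at day 3 (adjusted p = 0.00535) and 5.66 at day 6 (adjusted p = 2.93e-06).

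At the later days the mean levels of Saa3, Saa2, Hp, Csf3r, Slfn4, and Socs3 in HNKO liver lay below the lowest day 6 library, a difference that was not tested. Saa3 was at 6.35 ± 4.897 CPM at day 12 (SD, n = 6) and 4.25 ± 1.897 CPM at day 21 (SD, n = 3), and Saa2 at 135 ± 105 CPM at day 12 (SD, n = 6) and 27.7 ± 12.4 CPM at day 21 (SD, n = 3). Hp was at 2187 ± 672 CPM at day 12 (SD, n = 6) and 1872 ± 369.7 CPM at day 21 (SD, n = 3), within the range of its day 3 libraries. Csf3r was at 6.51 ± 3.43 CPM at day 12 (SD, n = 6) and 4.86 ± 1.87 CPM at day 21 (SD, n = 3), and Slfn4 at 1.55 ± 1.07 CPM at day 12 (SD, n = 6) and 1.699 ± 0.671 CPM at day 21 (SD, n = 3). Socs3 was at 36.2 ± 25.97 CPM at day 12 (SD, n = 6) and 33.5 ± 18.7 CPM at day 21 (SD, n = 3), above its highest day 3 library. Day 21 rests on the 3 HNKO libraries kept by the study.

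Genes of the circadian clock separated the libraries within a group. No gene of the 20 in the list passed, with a median log2 fold change of 0.48 and 9 genes higher at an unadjusted p under 0.05. A clock score, which sets genes of opposite phase against each other on the log2 CPM scale, was −1.98 to −1.10 in the 5 HNKO libraries of day 3. It was 1.19, 2.15, −3.21, 0.76, and 1.35 in those of day 6. Library 29 thus lay below all libraries of day 3, and the other 4 lay above them. Dbp, an output gene of the clock chosen after its values were seen, was at 11.2, 9.72, 14.99, 16.6, and 9.25 CPM at day 3 and 64.8, 111, 2.47, 62.5, and 77.96 CPM at day 6 (log2 fold change 2.36, 95% interval 0.64 to 4.08, adjusted p = 0.209). Arntl, a core clock activator chosen likewise, was at 24.6, 18.96, 19.9, 11.7, and 19.4 CPM at day 3 and 6.32, 3.24, 29.3, 7.06, and 5.32 CPM at day 6 (log2 fold change −0.86, 95% interval −2.07 to 0.34, adjusted p = 0.66). Bhlhe41, a clock repressor, was at 0.691, 0.215, 0.287, 1.31, and 0.608 CPM at day 3 and 4.68, 2.35, 0.3495, 2.85, and 9.73 CPM at day 6 (log2 fold change 2.63, 95% interval 1.14 to 4.13, adjusted p = 0.0764). Exons of Bhlhe41 overlap those of a predicted gene on the opposite strand, itself called higher (log2 fold change 4.32), so its counts are uncertain. Cry2, another repressor, was at 20.1 to 27.97 CPM at day 3 and 18.1 to 44.9 CPM at day 6 (log2 fold change 0.66, 95% interval 0.22 to 1.102, adjusted p = 0.155). In WT liver the score was −1.55 to 0.55 at day 3 and 2.63, 2.85, −2.52, and −1.80 at day 6. With the score as a covariate 453 genes passed, 136 of the 158 among them. The part of the clock in these results was not tested. Library 29 was also the highest of the day 6 HNKO libraries for 67 of the 124 higher genes and the lowest for 24, beside 5907 and 4515 of the 20297 tested genes. Without it 129 genes passed, 80 of the 158 among them.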

How the data were processed

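Raw counts per gene for whole liver of 40 mice were deposited by the authors as 1 table without normalization. Per the submitters' notes and the methods of the study, 51-bp paired-end reads were aligned to GRCm38 with STAR 2.7.2b, fragments with both ends aligned were counted on GENCODE genes with featureCounts 1.6.4, and edgeR 3.26.0 was used. The use of strand is not given in the sources used here. Beside the genes marked in the text, exons of the called genes F13a1, Gbp2, Hk3, Irs1, Ncf1, and Selp overlap genes on the opposite strand. The table had 0 columns that no sample matched. Of its 55487 gene identifiers 55394 were matched to a symbol. Libraries were grouped by genotype and day of the labels, which give the days as age, and which the methods give as days of PD feeding. HNKO day 21 libraries 17 and 18, which the labels mark as failing quality control, were left out of the fit, which held 38 libraries.

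Genes were kept by edgeR's filter (minimum count 10, total 15, proportion 0.7), which left 99.9% of counts. Library sizes were normalized by TMM, and each group of genotype and day had its own mean in the model of edgeR 4.0.16 (R 4.3.3), with the legacy dispersion and the quasi-likelihood test, and p-values were adjusted by Benjamini-Hochberg over 20297 genes. Standard errors and 95% intervals are those that the test statistic implies. The exact permutation test was two-sided and over log2 CPM with a prior count of 2. For the clock score, the log2 CPM of each gene was first centered on its mean over the 38 libraries. The score is the mean centered value of Dbp, Tef, Nr1d1, Nr1d2, Per3, and Ciart minus that of Arntl, Npas2, Clock, Nfil3, and Cry1. Its sign is thus relative to the average of the series. Shares of 51-base stretches were computed over GENCODE transcripts of the build. As a check for a library deposited more than once, pairs within the HNKO and WT groups of days 3 and 6 were compared, and none agreed within counting noise (chi-square per degree of freedom at least 18.5). Depth and the spread between 4 or 5 mice per group set the precision.

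The genes named are Nampt, the markers the paper names, for each direction the 12 genes of smallest p that are not gene models, the called members of each list (at most 6) or else the 2 with the smallest p, and the 6 genes with the smallest p for the difference between genotypes, and some genes that these rules name are not reported here. The gene lists, the comparison, and these rules were chosen with earlier results of these data known, and lists are described by counts and medians only. The fits were tested on simulated data. Alternatives were RLE size factors, DESeq2 1.42.0, no filter, at least 10 counts in each of the 10 HNKO libraries, only those 10 libraries, all 40 libraries, the edgeR 4 computation, robust estimation, the series of library numbers (1 to 21, 22 to 41) or the clock score as a covariate, fits within each series, and leaving out each library in turn.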

Additional observations from a re-analysis of the deposited data

Results flagged for a closer look

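In 130 sets of 4 or 5 libraries the gap between the most extreme library and its neighbour was compared with the range of the set. Of these sets 14 exceeded Dixon's 95% critical value, which independent normal samples exceed in about 1 in 20 sets. The sets here share libraries and are mostly CPM on a linear scale, so that rate need not hold for them. Among acute phase genes of HNKO day 3, library 3 was high for Saa1 (gap of 0.779 of the range), for Orm2 (0.933), and for Lcn2 (0.838), and library 4 was low for Saa3 (0.805). Library 22 was high for Il1r1 (0.74) in the same group, and library 3 was high for the summed Kupffer cell markers (0.728). In HNKO day 6, library 7 was high for Orm2 (0.722), for H19 (0.993), an imprinted transcript of fetal liver, and for the summed B and plasma cell markers (0.877). Library 29 of that group was high for Spp1 (0.77), for Arntl (0.854), for Cd38 (0.792), and for the summed cholangiocyte and oval cell markers (0.774), and low for the clock score (0.74). H19 was at 1.2004, 1.89, 0.328, 0.152, and 3.47 CPM at day 3 and 0.909, 76.1, 1.07, 0.626, and 0.563 CPM at day 6. The change of Saa3 from day 3 to day 6 differed between HNKO and WT liver by 3.94 on the log2 scale in a test of that difference. This call was lost with robust estimation, with all 40 libraries, within either series of library numbers, and without several single libraries.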

How the results depend on the processing

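The 158 genes called in HNKO liver had the same direction in each alternative in which they were tested, which is no independent evidence, since the alternatives share their libraries. The share of tested genes that passed, 0.778% in the main comparison, was 0.247% without the filter (86 genes higher, 11 lower), 0.0677% in a fit of the 10 HNKO libraries alone (12 higher, 0 lower), 0.15% with all 40 libraries (28 higher, 2 lower), 1.24% with the number series as a covariate (171 higher, 81 lower), 2.23% with the clock score (330 higher, 123 lower), 1.65% with DESeq2 (234 higher, 101 lower), 0.00493% within library numbers 1 to 21 (1 higher, 0 lower), and 0.0296% within 22 to 41 (6 higher, 0 lower). It was 0.187% to 1.2% without single HNKO libraries, with 33 to 193 genes higher and 3 to 49 lower. The lowest share came without HNKO day 3 library 4, with 38 genes, and the fewest lower genes without day 6 library 30. WT liver had 5 genes with DESeq2 and 0 in the other fits. The difference between genotypes gave 3 genes without the filter, 2 with at least 10 counts in each HNKO library, 2 with the edgeR 4 computation, 4 with the clock score, 13 with DESeq2, 0 with all 40 libraries, with robust estimation, and within either series, and 0 to 3 without single libraries.

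Directions turned only for genes that were not called. Within library numbers 1 to 21 Epcam was at −0.21 and Spp1 at −0.56. Within 22 to 41 Sox9 was at 0.21, Krt7 at 0.33, Sds at −0.13, H19 at −1.15, Pck1 at −0.18, Glul at 0.025, and Igkc at −0.54. With the clock score Sox9 was at 0.10, Krt7 at 0.031, Cyp2a5 at −0.39, Dbp at −0.028, and Arntl at 0.013. Krt7 was at 0.0017 with at least 10 counts in each HNKO library, 0.014 with the edgeR 4 computation, and 0.079 with the number series. Without single HNKO libraries Krt7 ranged from −0.26 to 0.53, Sox9 from −0.37 to 0.043, Spp1 from −0.12 (without day 6 library 29) to 0.62, H19 from −0.78 (without day 6 library 7) to 4.21, and Igkc from −0.31 (without day 6 library 7) to 1.61. The cause was not tested. Of the log2 fold changes of named genes, 2195 values kept their direction and side of the threshold, 402 lost the call, and 21 gained it. DESeq2 gave no adjusted p for Nxpe5, Ighm, and Epb42, which are not counted. No paired analysis was possible because the library numbers are not shared between groups.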

Other observations

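Gene lists of liver identity and zonation held no called gene in the comparison of HNKO day 6 with day 3. The median log2 fold change was 0.00 over 13 periportal markers, −0.06 over 12 pericentral markers, −0.04 over 22 hepatocyte transcription factors, −0.02 over 24 tested genes of the growth hormone axis, and 0.08 over 13 tested fetal liver genes. Cdh1, the E-cadherin of periportal hepatocytes, was at 91.02 to 123 CPM at day 3 and 56.02 to 105 CPM at day 6 (log2 fold change −0.46, 95% interval −0.83 to −0.09, adjusted p = 0.281). Pck1, the gluconeogenic enzyme phosphoenolpyruvate carboxykinase, was at 1198 to 2271 CPM at day 3 and 1235 to 3474 CPM at day 6 (log2 fold change 0.45, 95% interval −0.14 to 1.04, adjusted p = 0.625), and Glul, the pericentral glutamine synthetase, at 901 to 1584 CPM at day 3 and 794 to 1532 CPM at day 6 (log2 fold change −0.18, 95% interval −0.504 to 0.15, adjusted p = 0.786). Cyp2a5, a pericentral P450 that shares 36.2% of its 51-base stretches with related genes, was at 66.1, 125, 375, 343, and 79.5 CPM at day 3 and 421, 385, 45.8, 362, and 547 CPM at day 6 (log2 fold change 0.83, 95% interval −0.304 to 1.97, adjusted p = 0.649), and library 29 was the lowest of the 10. Prox1, a homeobox factor of hepatocytes, was at 165 to 293 CPM at day 3 and 126 to 207 CPM at day 6 (log2 fold change −0.45, 95% interval −0.77 to −0.14, adjusted p = 0.172), and Gata4 at 15.9 to 23.1 CPM at day 3 and 13.9 to 17.6 CPM at day 6 (log2 fold change −0.33, 95% interval −0.58 to −0.08, adjusted p = 0.251). Bcl6, a repressor in growth hormone signaling, was at 20.95, 24.4, 48.2, 50.3, and 20.3 CPM at day 3 and 23.2, 18.3, 19.7, 20.999, and 17.02 CPM at day 6, with day 3 libraries 4 and 22 above all others (log2 fold change −0.73, 95% interval −1.23 to −0.23, adjusted p = 0.165). Igf2bp2, an RNA-binding protein of fetal liver, was at 1.31 to 2.28 CPM at day 3 and 2.39 to 4.29 CPM at day 6, without overlap (log2 fold change 0.796, 95% interval 0.21 to 1.38, adjusted p = 0.214).

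The matrix genes Col1a1 and Timp1, chosen after their values were seen, varied as much within a day as between days. Col1a1, the alpha 1 chain of type I collagen, was at 80.4, 36.4, 12.8, 7.62, and 87.95 CPM at day 3 and 27.97, 86.9, 189, 58.4, and 57.2 CPM at day 6 (log2 fold change 0.902, 95% interval −0.17 to 1.97, adjusted p = 0.567). Timp1, an inhibitor of matrix metalloproteinases, was at 3.71, 2.79, 0.614, 0.759, and 4.604 CPM at day 3 and 2.09, 4.78, 9.69, 4.67, and 3.18 CPM at day 6 (log2 fold change 0.98, 95% interval −0.08 to 2.05, adjusted p = 0.508). The same libraries were low in both, 4 and 22 of day 3, and library 29 was the highest in both. Bnip3, a mitophagy receptor, was at 40.2, 38.2, 46.1, 49.02, and 38.8 CPM at day 3 and 62.1, 65.2, 41.8, 60.04, and 75.01 CPM at day 6 (log2 fold change 0.52, 95% interval 0.17 to 0.87, adjusted p = 0.164), and Kng2, a kininogen, at 282 to 376 CPM at day 3 and 367 to 485 CPM at day 6 (log2 fold change 0.32, 95% interval 0.15 to 0.498, adjusted p = 0.0647).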
